A study of Mus musculus with 7 samples.

Results

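The VEGF and angiopoietin system was followed in mature adipocytes through 10 genes, taken from the deposited count table by symbol: the ligands Vegfa, Vegfb, Vegfc, Angpt1 and Angpt2, the VEGF receptors Flt1 and Kdr, the co-receptors Nrp1 and Nrp2, and the angiopoietin receptor Tek. All 10 were found among 57010 gene identifiers, and all 10 passed the filter on low counts. The libraries were poly-A RNA-seq of adipocytes that collagenase released from the perigonadal fat of male mice aged 20 weeks and kept on standard chow. The 4 Adipoq-F2-KO libraries came from mice that carried floxed FFA2 alleles together with Adiponectin-Cre, whose promoter drives the recombinase in adipocytes, and the 3 control libraries came from FFA2 fl/fl littermates, so that both groups shared the floxed alleles. FFA2 (gene symbol Ffar2) is a receptor for short-chain fatty acids. Mice with the Cre alone were not analysed here, and a deletion driven by Adiponectin-Cre leaves Ffar2 intact in the vascular and immune cells of the same tissue.

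VEGF-A and VEGF-B are secreted by adipocytes, among other cells, and act on endothelial cells. Kdr (VEGFR2) carries most of the growth signal of VEGF-A, Flt1 (VEGFR1) binds VEGF-A and VEGF-B tightly and can act as a trap, and neuropilins present the ligand to these receptors. Angiopoietin-1 activates the receptor Tie2, the product of Tek, and steadies vessels, while angiopoietin-2 is released by endothelial cells and can oppose it. In adipose tissue this system is known for matching the capillary bed to the size of the fat cells.

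Promoter sequences are shown for Vegfa, the best known ligand that adipocytes secrete, and for Flt1, Nrp2 and Tek, receptor genes for which every Adipoq-F2-KO library lay above every control. They come from RefSeq on GRCm38.p6 and run 5′ to 3′ on the strand of the gene, up to its annotated start. The capitals mark the letters of 4 motifs on either strand: ACGTG and GCGTG, core letters that hypoxia-inducible factors bind, GGAAG, a core of sites for ETS factors, and TGACGTCA, the cyclic AMP response element, which holds no whole copy of another motif. They lie at chr17:46032378-46032627 (minus strand) for Vegfa, chr5:147726012-147726261 (minus strand) for Flt1, chr1:62703067-62703284 (plus strand) for Nrp2 and chr4:94739039-94739288 (plus strand) for Tek.
Vegfa: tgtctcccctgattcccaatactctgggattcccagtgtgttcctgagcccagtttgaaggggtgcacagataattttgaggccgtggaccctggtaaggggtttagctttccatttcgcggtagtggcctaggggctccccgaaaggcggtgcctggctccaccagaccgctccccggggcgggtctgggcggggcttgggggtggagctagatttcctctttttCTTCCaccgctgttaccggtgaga
Flt1: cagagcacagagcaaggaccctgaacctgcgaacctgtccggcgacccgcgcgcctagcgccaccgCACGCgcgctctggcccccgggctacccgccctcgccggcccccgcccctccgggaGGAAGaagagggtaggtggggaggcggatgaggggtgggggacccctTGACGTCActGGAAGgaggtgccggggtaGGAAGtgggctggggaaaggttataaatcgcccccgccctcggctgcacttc
Nrp2: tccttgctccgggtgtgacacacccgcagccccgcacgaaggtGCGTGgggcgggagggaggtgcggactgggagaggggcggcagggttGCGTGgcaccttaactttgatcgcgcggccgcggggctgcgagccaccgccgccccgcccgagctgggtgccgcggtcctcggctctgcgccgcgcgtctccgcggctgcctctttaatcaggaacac
Tek: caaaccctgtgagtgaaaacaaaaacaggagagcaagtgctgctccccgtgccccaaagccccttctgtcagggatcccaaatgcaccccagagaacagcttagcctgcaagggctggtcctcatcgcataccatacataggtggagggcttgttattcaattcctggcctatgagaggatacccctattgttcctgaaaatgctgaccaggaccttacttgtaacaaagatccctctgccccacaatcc
The Flt1 window held 3 GGAAG, 1 GCGTG and 1 TGACGTCA. The Nrp2 window held 2 GCGTG, the Vegfa window held 1 GGAAG, and the Tek window held none of the 4 motifs. RefSeq gives Vegfa another start, and the window before it (chr17:46025164-46025413, minus strand), not printed, held 1 ACGTG, 1 GCGTG and 1 GGAAG. On the strand of the gene that window lies downstream of the start used for the printed window, so it is inside the gene. Of 32851 RefSeq promoters, cut to the 250 bases before the start, 64.1% held GGAAG, 28.2% held GCGTG, 16.6% held ACGTG and 1.55% held TGACGTCA. These matches describe letters in the windows, and binding was not measured. A window was had for 7 of the 10 genes, not for Nrp1, Angpt1 and Angpt2. Of those not printed, Vegfb held 2 GCGTG, Kdr 2 GCGTG and 1 GGAAG, and Vegfc none of the motifs.

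Library totals ran from 30478997 to 39992605 counts, and 3 fragments correspond to between 0.150 and 0.197 CPM (counts scaled to the size of the library), well under the level of each of the 10 genes. Ffar2, the deleted gene, had 1404, 1346 and 1094 counts in the controls against 67, 38, 48 and 76 in the knockouts, a log2 fold change of -4.36 (SE 0.22, edgeR adjusted p 8.0e-06). Adipoq, which encodes adiponectin, stood at 3608 ± 155 CPM (SD, n = 3) in the controls and 3087 ± 519 CPM (SD, n = 4) in the Adipoq-F2-KO libraries. Markers of other cells were present too, and Adipoq-F2-KO library 4 stood apart from the rest: it had the lowest summed adipocyte markers and the highest summed endothelial, mural and macrophage markers of the 7 libraries. Values without it are therefore given beside the results. Mitochondrial genes took 4.41% to 5.77% of the counts in the controls and 6.61% to 10.3% in the Adipoq-F2-KO libraries, without overlap, and the part of this difference in the results below was not tested.

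The first question was which of these genes adipocyte preparations carried, and at what level per transcript length. In TPM, which scales counts by gene length and by library, Vegfb was the highest of the 10 in the controls at 420 ± 27.1 (SD, n = 3), and Vegfa followed at 329 ± 25.9. By the mean over all 7 libraries, these ligands lay above the levels of 98.3% and 97.8% of tested genes. Nrp1 was the most abundant receptor gene at 74.9 ± 3.19 TPM, ahead of Kdr at 46.2 ± 7.28 TPM and Flt1 at 37.9 ± 2.21 TPM. Tek stood at 24.5 ± 3.92 TPM and Nrp2 at 16.3 ± 1.90 TPM. Angpt2 at 9.53 ± 0.932 TPM, Angpt1 at 4.54 ± 1.15 TPM and Vegfc at 3.48 ± 0.812 TPM were the lowest.

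The order of the 10 means was the same in the Adipoq-F2-KO libraries, from Vegfb at 332 ± 58.9 TPM (SD, n = 4) and Vegfa at 291 ± 106 TPM to Angpt1 at 6.84 ± 2.51 TPM and Vegfc at 5.49 ± 2.15 TPM. Neighbours in this order did not always differ beyond their spread. In the controls the ranges of Kdr and Flt1 overlapped, as did those of Angpt1 and Vegfc. In the Adipoq-F2-KO libraries the ranges also overlapped between Vegfb and Vegfa, Nrp1 and Kdr, Flt1 and Tek, and Tek and Nrp2. The most abundant members were the ligands that adipocytes are known to secrete, with receptors of endothelial cells below them in the same libraries.

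**Figure D1:**
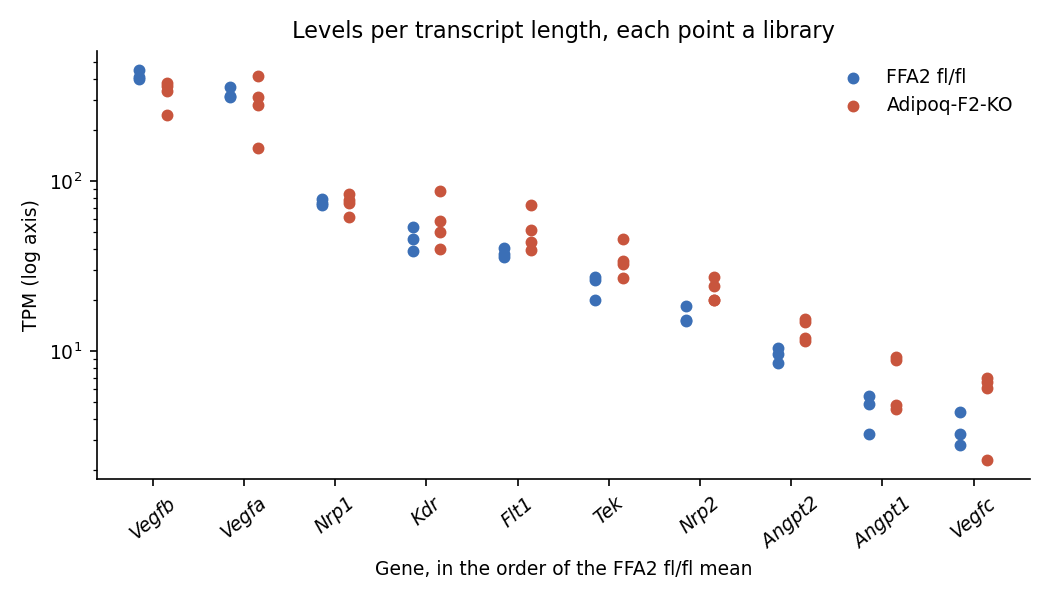
TPM on a log axis for the 10 genes in the order of their control means, 1 point a library, FFA2 fl/fl in blue (n = 3) and Adipoq-F2-KO in red (n = 4). Vegfb and Vegfa lie above the other genes in the controls, and Angpt1 and Vegfc lie lowest in both genotypes.

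The main comparison asked whether loss of FFA2 in adipocytes went with another level of these ligands and receptors. By edgeR's quasi-likelihood test, 0 of the 10 genes passed an adjusted p of 0.05, against 1.02% of the 17039 genes tested (0.798% that rose). At an unadjusted p under 0.05 there were 5, Flt1, Nrp2, Angpt1, Angpt2 and Tek, all with higher means in Adipoq-F2-KO libraries, against 17.9% of tested genes in either direction and 10.5% that were higher. DESeq2 called 4 of the 10, Flt1, Nrp2, Angpt2 and Tek, all higher, against 6.75% of the genes to which it gave an adjusted p (5.03% higher), while limma voom called 0. When every gene with at least 1 count was tested, edgeR called 6, those 4 with Kdr and Angpt1, against 4.92% of 28515 genes (3.76% higher). Among the 17039 genes of the main test, which include all 10, that fit called 949 higher and 303 lower. Without Adipoq-F2-KO library 4 edgeR called 0, against 0.997%. The log2 fold change was above 0 for 8 of the 10, against 50.4% of tested genes, with a median of 0.59 against 0.00 for all tested genes. Without library 4, the median was 0.38 and 9 of the 10 were above 0. These are levels in bulk RNA, in which fewer cells of a type and less RNA per cell cannot be told apart.

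**Figure D2:**
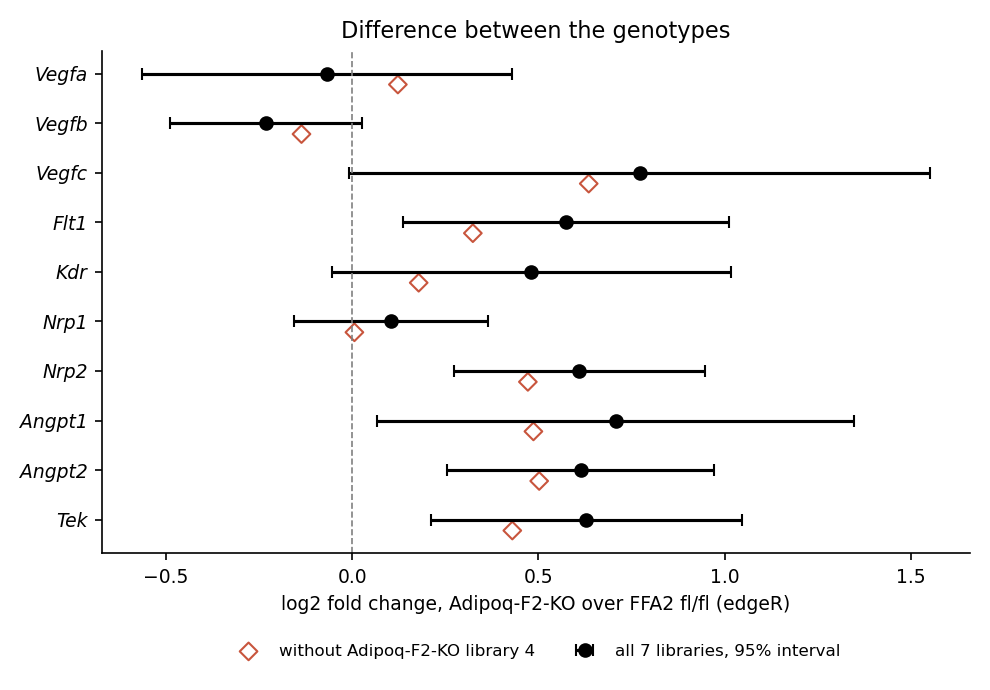
Log2 fold change of Adipoq-F2-KO over FFA2 fl/fl from edgeR for the 10 genes, with the 95% interval (black, 7 libraries), and the value without Adipoq-F2-KO library 4 (open diamonds). The intervals of Flt1, Nrp2, Angpt1, Angpt2 and Tek lie above 0 before adjustment, and the diamonds of these genes lie closer to 0 than the black points.

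Among the VEGF ligands, means did not move in a single direction. Vegfa (ENSMUSG00000023951, chr17:46327919-46343295, minus strand, coordinates as in the deposited table) stood at 425, 447 and 486 normalized CPM in the controls and at 408, 446, 625 and 250 in Adipoq-F2-KO libraries. The knockout libraries held both the highest and the lowest value, so that the groups overlapped. On the log2 scale the fold change was -0.07 (SE 0.23, 95% interval -0.56 to 0.43, edgeR adjusted p 0.910), and without Adipoq-F2-KO library 4 it was 0.12, on the other side of 0. The interval holds differences of either sign, so the direction could not be read from these libraries.

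Vegfb (ENSMUSG00000024962, chr19:6959841-6965019, minus strand), whose product binds Flt1 but not Kdr and is known for its link to fatty acid uptake by endothelium, had 208, 214 and 229 normalized CPM in the controls and 205, 182, 205 and 147 in Adipoq-F2-KO libraries. All 4 knockout values lay below the lowest control, though 2 of them by a narrow margin. Its log2 fold change was -0.23 (SE 0.12, interval -0.49 to 0.03, edgeR adjusted p 0.329), and an exact permutation test, two-sided, of the mean CPM gave p = 0.114, where 0.0286 is the smallest p that 3 against 4 libraries allow. Without library 4 the log2 fold change of Vegfb was -0.14.

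The ligands were set beside the adipocyte markers, of which 11 of 12 had lower means in Adipoq-F2-KO libraries, with a median log2 fold change of -0.30 (-0.18 without library 4) and 0 called by edgeR. At an unadjusted p under 0.05 there were 6 of them that were lower and 1 that was higher, and DESeq2 called 3. The insulin-responsive glucose transporter gene Slc2a4 (log2 fold change -0.35, SE 0.09), the lipase gene Lipe (-0.40, SE 0.11) and the lipid droplet gene Plin4 (-0.38, SE 0.11) had the smallest p. The 12 markers summed to 48688 to 54085 CPM in the controls and 36654 to 48337 CPM in the Adipoq-F2-KO libraries, without overlap. The largest parts of that sum were Cfd (13847 CPM in the controls, log2 fold change -0.32) and Fabp4 (11626 CPM, -0.0062), so it leans on these genes most. Divided by that sum, Vegfb came to 4.27, 4.07 and 4.23 CPM per 1000 CPM of adipocyte markers in the controls and to 4.61, 3.97, 4.24 and 4.02 in the knockouts, so that the ranges overlapped on this scale. Vegfa came to 8.73, 8.52 and 8.99 per 1000 in the controls and to 9.19, 9.72, 12.9 and 6.81 in the knockouts, with library 4 again the lowest.

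Vegfc (ENSMUSG00000031520, chr8:54530641-54640131, plus strand), the ligand known for lymphatic growth, was scarce, with 74 to 126 counts in a control library and 72 to 230 in a knockout library. It had 3.36, 2.67 and 2.17 normalized CPM in the controls and 5.77, 4.98, 1.99 and 5.97 in Adipoq-F2-KO libraries. Adipoq-F2-KO libraries 1, 2 and 4 lay above the controls and library 3 lay below them. A log2 fold change of 0.77 (SE 0.36, interval -0.01 to 1.55) did not pass (edgeR adjusted p 0.285).

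The VEGF receptor genes had higher means in the Adipoq-F2-KO libraries, most of all in library 4. Flt1 (ENSMUSG00000029648, chr5:147498414-147662821, minus strand) had 153, 183 and 160 normalized CPM in the controls and 235, 197, 188 and 363 in Adipoq-F2-KO libraries. Every knockout value lay above every control, with library 3 only just above control 2. Flt1 had a log2 fold change of 0.57 (SE 0.20, interval 0.14 to 1.01), with an adjusted p of 0.172 in edgeR and 0.0427 in DESeq2. Without library 4 it was 0.32.

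Kdr (ENSMUSG00000062960, chr5:76093487-76139118, minus strand), the main signalling receptor for VEGF-A, had 111, 162 and 131 normalized CPM in the controls and 178, 152, 127 and 295 in Adipoq-F2-KO libraries. Library 4 stood far above the others, and knockout libraries 2 and 3 lay within the control range. The log2 fold change of 0.48 (SE 0.24, interval -0.06 to 1.02, edgeR adjusted p 0.329) came to 0.18 without library 4. The Flt1 to Kdr ratio in TPM overlapped between the genotypes, from 0.754 to 0.926 in the controls and from 0.824 to 0.988 in the knockouts.

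The neuropilins, co-receptors shared by VEGFs and class 3 semaphorins, were unlike each other. Nrp1 (ENSMUSG00000025810, chr8:129085085-129229844, plus strand) had 228, 257 and 223 normalized CPM in the controls and 246, 252, 213 and 304 in Adipoq-F2-KO libraries. The groups overlapped, with a log2 fold change of 0.10 (SE 0.12, interval -0.16 to 0.36, edgeR adjusted p 0.691). Without library 4 it was 0.0063.

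Nrp2 (ENSMUSG00000025969, chr1:62742444-62857854, plus strand), which binds VEGF-C as well as VEGF-A, had 56.7, 73.3 and 56.8 normalized CPM in the controls and 96.2, 78.6, 84.1 and 121 in Adipoq-F2-KO libraries. All 4 knockout libraries were above all 3 controls, and Nrp2 had the smallest p of the 10 genes. Its log2 fold change was 0.61 (SE 0.15, interval 0.27 to 0.95), with an adjusted p of 0.0809 in edgeR and 0.00496 in DESeq2, and without library 4 it was 0.47. In TPM, Nrp1 stood above Nrp2 by a factor of 4.88, 4.24 and 4.76 in the controls and of 3.10, 3.88, 3.07 and 3.04 in the knockouts. These ratios did not overlap. They were looked at after the values of both genes were known and are given as a description.

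On the angiopoietin side, means were higher in Adipoq-F2-KO libraries for the ligands and the receptor alike. Angpt1 (ENSMUSG00000022309, chr15:42288119-42540373, minus strand), the Tie2 agonist, had 5.31, 8.54 and 9.02 normalized CPM in the controls and 8.43, 15.3, 8.35 and 17.8 in Adipoq-F2-KO libraries. Libraries 2 and 4 lay well above the controls, while libraries 1 and 3 lay among them. Angpt1 had a log2 fold change of 0.71 (SE 0.29, interval 0.07 to 1.35, edgeR adjusted p 0.239), and 0.49 without library 4.

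Angpt2 (ENSMUSG00000031465, chr8:18740279-18791578, minus strand), the antagonist that endothelial cells store and release, had 11.1, 12.9 and 10.02 normalized CPM in the controls and 18.5, 14.1, 15.6 and 21.3 in Adipoq-F2-KO libraries. Every knockout value lay above every control. The log2 fold change was 0.61 (SE 0.16, interval 0.26 to 0.97), with an adjusted p of 0.0968 in edgeR and 0.0183 in DESeq2, and it was 0.50 without library 4. Angpt2 lies within Mcph1 on the opposite strand, and whether counting used the strand is not given in the sources used here, so reads of the 2 genes may not be fully separated.

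Tek (ENSMUSG00000006386, chr4:94627526-94763213, plus strand) had 29.5, 41.4 and 40.5 normalized CPM in the controls and 51.9, 53.6, 44.7 and 79.8 in Adipoq-F2-KO libraries, again without overlap. Its log2 fold change was 0.63 (SE 0.19, interval 0.21 to 1.04), with an adjusted p of 0.126 in edgeR and 0.0240 in DESeq2, and 0.43 without library 4. The Angpt1 to Angpt2 ratio in TPM overlapped between the genotypes, from 0.339 to 0.638 in the controls and from 0.324 to 0.768 in the knockouts.

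**Figure D3:**
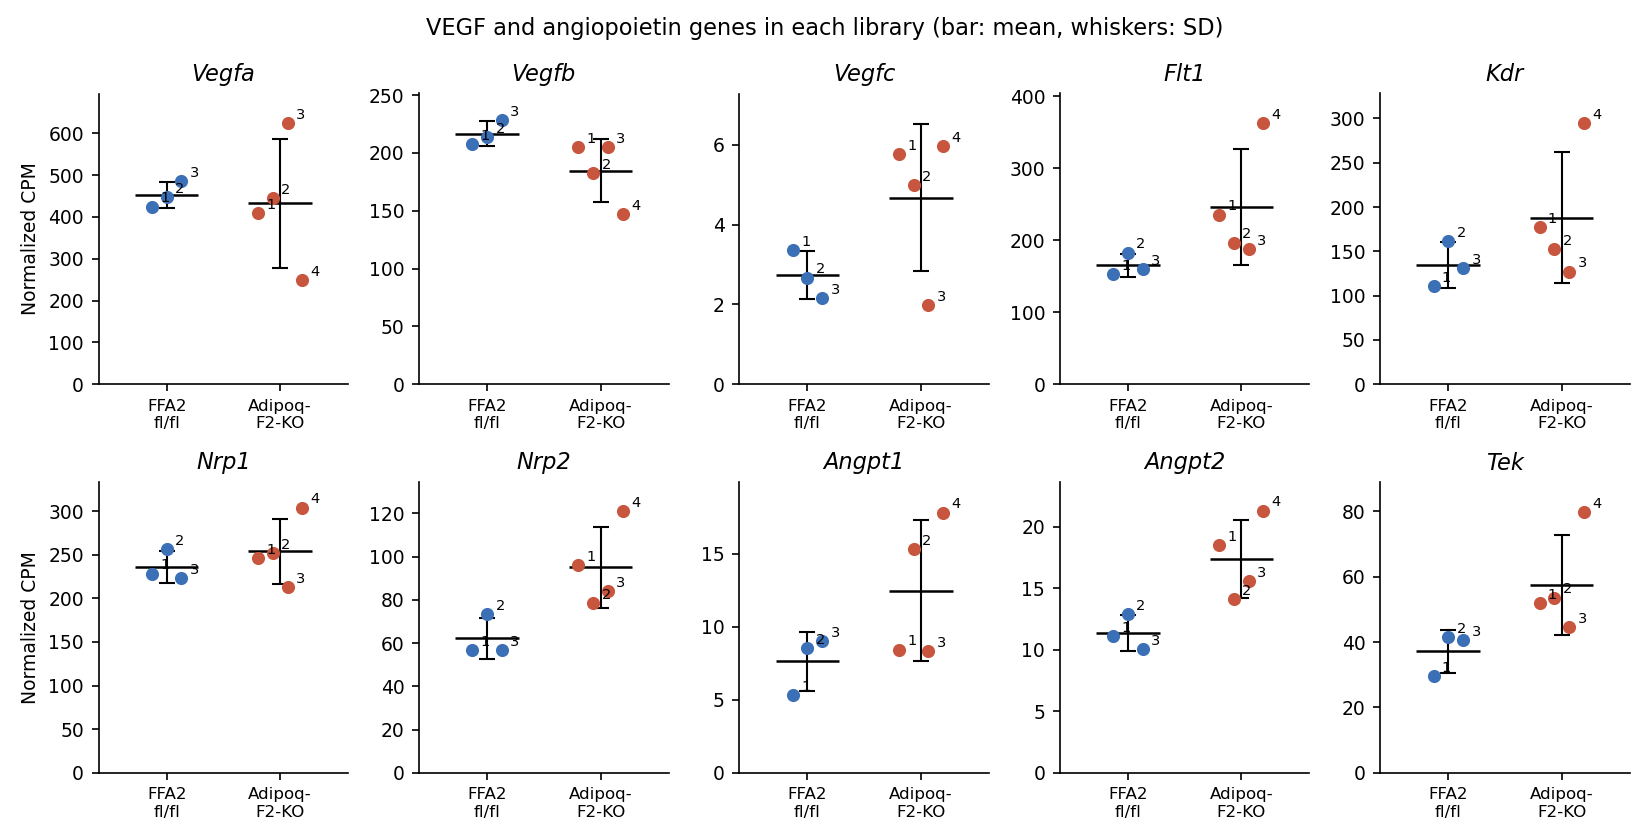
Normalized CPM of each of the 10 genes in each library, FFA2 fl/fl in blue (n = 3) and Adipoq-F2-KO in red (n = 4), numbered by replicate, with the mean (bar) and SD (whiskers). Flt1, Nrp2, Angpt2 and Tek have every Adipoq-F2-KO library above every control, Vegfb has every one below, and Adipoq-F2-KO library 4 is the highest for each gene but Vegfa and Vegfb, where it is the lowest.

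In all, 4 of the 10 genes had every Adipoq-F2-KO library above every control and 1 had every one below, against 8.86% and 8.72% of tested genes (17.6% in either direction). Without Adipoq-F2-KO library 4 the counts were again 4 and 1, against 10.7% that were higher and 21.2% in either direction. For Nrp2, Angpt2 and Tek an exact permutation test on mean CPM, two-sided, gave p = 0.0571, and for Flt1 it gave p = 0.114.

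Endothelial markers were compared next. Of 20 endothelial markers, 18 had higher means in the Adipoq-F2-KO libraries, with a median log2 fold change of 0.43 (0.29 without library 4), 0 called by edgeR, 13 at an unadjusted p under 0.05 and 5 called by DESeq2. Their summed level was 1757 to 2242 CPM in the controls and 2193 to 3186 CPM in the knockouts, and 2193 to 2487 CPM in Adipoq-F2-KO libraries 1 to 3. None of the listed markers was at 0 in all libraries. Clec14a, a lectin-like surface protein of endothelium, had 3.82 ± 0.522 CPM (SD, n = 3) in the controls and 6.71 ± 1.54 CPM (SD, n = 4) in the knockouts. The tight junction gene Cldn5 had 192 ± 15.3 CPM and 265 ± 46.0 CPM, and Cdh5, the cadherin of endothelial junctions, had 352 ± 62.1 CPM and 531 ± 130 CPM.

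To see the receptors against endothelial content, the 6 genes that endothelial cells express were divided by the summed endothelial markers of the same library. Nrp2 then came to 3.16% ± 0.160 (SD, n = 3) of that sum in the controls and 3.74% ± 0.121 (SD, n = 4) in the knockouts, a mean log2 difference of 0.25 with no overlap (exact two-sided permutation p = 0.0286, the smallest possible). Angpt2 came to 0.577% ± 0.0539 and 0.686% ± 0.0418, also a difference of 0.25 with no overlap (exact permutation p = 0.0286). For the other 4 the difference did not pass: 0.17 for Flt1 (exact p = 0.2), 0.07 for Kdr (exact p = 0.743), -0.26 for Nrp1 (exact p = 0.0857) and 0.26 for Tek (exact p = 0.143). None of these 6 p-values was adjusted. With Pecam1 and Cdh5 alone as the divisor, the difference was 0.057 for Nrp2 (exact p = 0.571) and 0.061 for Angpt2 (exact p = 0.686), so their higher share held against the list and not against these defining genes. For Tek it was 0.068 (exact p = 0.4), for Flt1 -0.018 (exact p = 0.857) and for Kdr -0.12 (exact p = 0.4). Nrp1 then lay at -0.45 (exact p = 0.0286), lower in every knockout library per unit of Pecam1 and Cdh5. The CPM of Nrp1 itself overlapped between the genotypes, while Pecam1 and Cdh5 had log2 fold changes of 0.51 and 0.59. Which cells the Nrp1 transcripts came from was not tested.

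The sums of mural, macrophage and progenitor markers did not overlap between the genotypes, and their part in the differences was not tested. Of 12 mural markers, 8 were higher, with a median of 0.24, 0 called by edgeR, 3 at an unadjusted p under 0.05 and 0 called by DESeq2, and their sum was 736 to 864 CPM in the controls and 877 to 1557 CPM in the knockouts. Rgs5, a pericyte gene, had 293 ± 46.4 CPM and 515 ± 196 CPM (log2 fold change 0.81, and 0.51 without library 4), and Pdgfrb and Abcc9 had the next smallest p (log2 fold change 0.49 and 0.52). Of 15 macrophage markers, 13 were higher and 2 rose by edgeR, Lyz2 (log2 fold change 0.69, SE 0.12, adjusted p 0.0383) and Cd68 (0.72, SE 0.14, adjusted p 0.0416), with the mannose receptor gene Mrc1 next (0.66, SE 0.15, adjusted p 0.0662). At an unadjusted p under 0.05, 10 of the 15 were higher and 1 was lower, and DESeq2 called 8, all higher. Macrophage markers summed to 631 to 752 CPM in the controls and 837 to 1024 CPM in the knockouts. Of 11 progenitor markers, 9 were higher, with a median of 0.27 (7 higher and 0.18 without library 4) and sums of 1893 to 2207 CPM and 2224 to 2320 CPM, led by the microfibril gene Fbn1 (log2 fold change 1.13, SE 0.26, edgeR adjusted p 0.0626), Col3a1 (0.41, SE 0.15) and Lum (0.80, SE 0.29). The macrophage and progenitor sums gave an exact permutation p of 0.0286, the smallest possible. The exact permutation p was 0.0571 for the mural and adipocyte sums and exact permutation p = 0.143 for the endothelial sum. This exact permutation test was run on the sums of 15 lists, without adjustment, and no other sum lay under 0.05.

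The lymphatic, mesothelial, erythroid and dissociation lists had sums that overlapped between the genotypes. Lymphatic markers, against which Vegfc may be set, were split 3 and 3, led by Pdpn (log2 fold change 0.60, SE 0.35), Lyve1 (-0.38, SE 0.26) and Prox1 (0.47, SE 0.64), with sums of 11.7 to 18.9 CPM in the controls and 12.1 to 17.0 CPM in the knockouts. Mesothelial markers were uneven within the controls, where they summed to between 11.3 and 57.4 CPM, against 10.8 to 15.6 CPM in the knockouts. Krt19 (log2 fold change -2.49, SE 0.84), Krt8 (-2.01, SE 0.75) and Wt1 (0.73, SE 0.29) had the smallest p among them. All 5 erythroid genes tested had higher means, with a median log2 fold change of 0.59 (0.38 without library 4) and 0 called by edgeR or DESeq2, and 2 were at an unadjusted p under 0.05. They summed to 97.6 to 223 CPM and 209 to 372 CPM, with Alas2 (log2 fold change 0.86, SE 0.31), Hba-a1 (0.59, SE 0.25) and Hba-a2 (0.56, SE 0.28) first. Genes that tissue dissociation is known to raise had a median log2 fold change of 0.00, with 8 of 15 higher, and Dusp1 (0.35, SE 0.13), Jun (-0.33, SE 0.15) and Atf3 (0.27, SE 0.12) first.

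**Figure D4:**
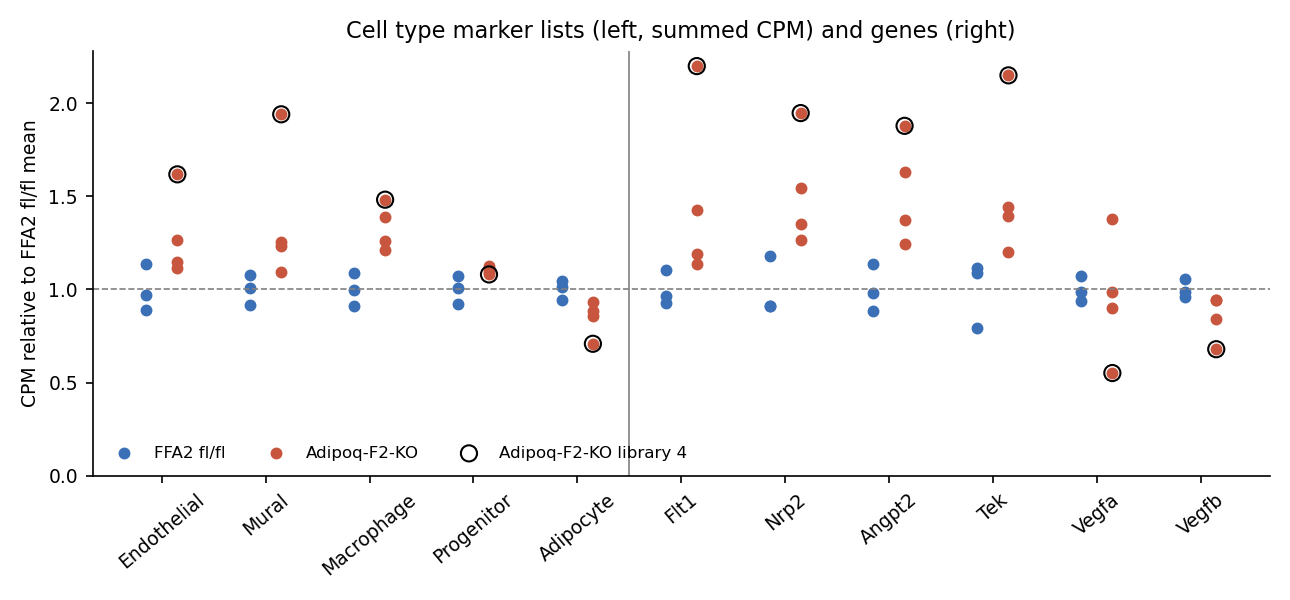
Summed CPM of 5 marker lists (left) and normalized CPM of 6 genes (right), each divided by its FFA2 fl/fl mean, 1 point a library, with Adipoq-F2-KO library 4 circled. Library 4 is the highest for endothelial, mural and macrophage markers and for Flt1, Nrp2, Angpt2 and Tek, and the lowest for adipocyte markers, Vegfa and Vegfb.

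Around these 10 genes, the wider pathway gave few calls. For comparison, 17.9% of all tested genes were at an unadjusted p under 0.05, and DESeq2 called 6.75%. A list of 10 other genes held ligands and receptors of the family and also partners outside it, such as integrins and a proteoglycan. Of these, 7 had higher means in the Adipoq-F2-KO libraries (median log2 fold change 0.28). By edgeR or DESeq2 0 were called, and 6 were at an unadjusted p under 0.05. Among them Tie1, the orphan partner of Tie2, had 101 ± 15.9 CPM in the controls and 136 ± 25.7 CPM in the knockouts. Sdc1, a heparan sulphate proteoglycan, had 14.8 ± 3.12 CPM and 21.02 ± 2.50 CPM, and the integrin gene Itgav had 36.4 ± 2.73 CPM and 44.3 ± 3.27 CPM.

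Semaphorins and plexins, the other partners of neuropilins, were 6 higher and 4 lower (median 0.12), with 0 called by edgeR or DESeq2 and 1 at an unadjusted p under 0.05. That was Sema3f, a ligand of neuropilin-2, at 35.7 ± 2.95 CPM in the controls and 46.0 ± 8.20 CPM in the knockouts. Plxna4 had 6.68 ± 1.58 CPM and 10.03 ± 3.79 CPM, and Sema3g had 58.0 ± 6.57 CPM and 69.7 ± 10.4 CPM.

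Genes of the hypoxia response, of which Vegfa is a textbook target, were split, 9 higher and 11 lower (median -0.03), with 2 called. Slc2a1, the basal glucose transporter, had 30.3, 37.0 and 39.0 normalized CPM in the controls and 49.6, 56.1, 59.6 and 72.8 in the knockouts, and rose by 0.75 on the log2 scale (SE 0.14, edgeR adjusted p 0.0396). Hif1a, which encodes the oxygen-regulated subunit of the factor, had 97.0, 118 and 128 in the controls and 147, 203, 185 and 196 in the knockouts, and rose by 0.68 (SE 0.13, edgeR adjusted p 0.0411). Both were above every control in every knockout library, but 0 of the 20 passed in edgeR without FFA2 fl/fl library 1, 2 or 3, or without Adipoq-F2-KO library 2 or 3. Bnip3, a mitophagy gene and also a hypoxia target, had 160 ± 10.8 CPM in the controls and 132 ± 9.81 CPM in the knockouts and did not pass (edgeR adjusted p 0.152).

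Genes that carry the signal downstream of VEGF receptors were 9 higher and 12 lower (median -0.01), with 0 called by edgeR. At an unadjusted p under 0.05 there were 7, 4 higher and 3 lower, and DESeq2 called 3, all higher. Among those with the smallest p were the GTPase gene Nras at 42.6 ± 4.11 CPM and 57.2 ± 4.97 CPM and the focal adhesion gene Pxn at 63.6 ± 7.36 CPM and 91.6 ± 15.3 CPM. Of the genes that endothelial cells are known to raise under VEGF, 13 of 14 were tested and all 13 had higher means (median 0.51), with 0 called by edgeR, 5 at an unadjusted p under 0.05 and 1 called by DESeq2. Without Adipoq-F2-KO library 4, 11 of the 13 were higher, with a median of 0.29. The smallest of the 13 log2 fold changes with all libraries was 0.0058. The endothelial markers had a median of 0.43 with all libraries and 0.29 without library 4. Apln, the apelin gene, had 11.02 ± 4.22 CPM in the controls and 19.3 ± 5.52 CPM in the knockouts. Plvap, which forms the diaphragms of fenestrae, had 59.3 ± 7.34 CPM and 78.0 ± 13.8 CPM, and the chemokine receptor gene Cxcr4 had 9.64 ± 2.25 CPM and 14.0 ± 2.58 CPM.

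Other secreted factors that act on vessels were 9 higher and 5 lower of 14 (median 0.15), with 0 called by edgeR. At an unadjusted p under 0.05 there were 3, 2 higher and 1 lower, against 17.9% of all tested genes. DESeq2 called 2, 1 higher and 1 lower, against 6.75%. Thbs2, an inhibitor of angiogenesis, had 94.6 ± 15.5 CPM in the controls and 54.2 ± 17.8 CPM in the knockouts, with every knockout below every control (log2 fold change -0.80, SE 0.22, adjusted p 0.0983 in edgeR and 0.00696 in DESeq2). Cxcl12 had 111 ± 21.4 CPM and 159 ± 36.6 CPM, and Igf1 had 167 ± 16.2 CPM and 200 ± 26.0 CPM.

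The genes whose pattern over the 7 libraries was most like that of the most abundant ligand and receptor were listed among 13507 genes. For Vegfb these were Dhrs4 (Pearson r 0.993), Col18a1 (0.991) and Mcrip2 (0.990). For Nrp1 they were Itpripl1 (0.987), Pitpnm3 (0.984) and Prpf40b (0.971). The 7 libraries fall in 2 genotypes and differ among themselves in depth and in cell type markers, so these are descriptions only.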

How the data were processed

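Adipocyte RNA in 7 libraries (3 FFA2 fl/fl, 4 Adipoq-F2-KO) was sequenced as stranded poly-A libraries. The deposited values are read counts per gene that the authors made with Trimmomatic, STAR and featureCounts, and DESeq2 is also named. Versions and options are not given in the sources used here. Of counts from 1 to 49, 85.5% to 88.8% were even, so that 1 fragment mostly gave 2 counts. The notes name GRCm38, but the starts of all 10 genes differ from GRCm38 with equal spans, and coordinates stand as deposited. Symbols (52029 of 57010 identifiers) came from GENCODE.

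Counts were tested with edgeR 4.0.16 (R 4.3.3; filterByExpr, TMM, quasi-likelihood, genotype only, two-sided, Benjamini-Hochberg over 17039 genes, called under 0.05). CPM were normalized by TMM, and TPM were computed from the counts and the deposited lengths. DESeq2 1.42.0, limma 3.58.1 voom, other size factors, all genes with at least 1 count, halved counts, a replicate block and each library left out were the alternatives. On simulated counts (200 of 17039 genes changed by 1 on the log2 scale) edgeR recovered 71.2% with 6.15% false calls, and DESeq2 73% with 14.1%. The simulated libraries did not differ in cell content as the real ones did. No 2 libraries of the same genotype agreed within sampling noise. The labels do not say that each library is 1 animal, and p-values measure the spread between libraries. The 10 genes and the gene lists were chosen with earlier results of these data known. From each list, called genes and otherwise those with the smallest p, up to 3, are named, except 1 that is not reported here. Replicate numbers did not pair the libraries. The edgeR intervals include the spread between libraries, while the floors of 3 fragments cover counting error only.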

Additional observations from a re-analysis of the deposited data

How the results depend on the processing

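Which genes passed depended on the test, the filter and the libraries kept. The number of all genes called was 173 with edgeR, 992 with DESeq2 and 1403 when every gene with at least 1 count was tested, and 1 to 178 with 1 library left out: 1 without FFA2 fl/fl library 1, 41 without 2, 5 without 3, 11 without Adipoq-F2-KO library 2 and 20 without 3. Of the 10 genes, 0 were called by edgeR, 4 by DESeq2, 6 with at least 1 count, and 0 with any library left out. The 15 gene lists hold 195 symbols, beside shares over all genes of 1.02% with edgeR, 6.75% with DESeq2 and 4.92% with at least 1 count. In the related lists 2 genes were called by edgeR, 8 by DESeq2, 14 with at least 1 count, and 0 to 2 with a library left out. In the cell type lists these were 2, 17, 35, and 0 to 2. Without Adipoq-F2-KO library 1 both had 2 and without library 4 both had 1, the cell type lists also had 2 without FFA2 fl/fl library 2, and each other library left out gave 0. For the sizes, DESeq2 gave log2 fold changes of 0.58 for Flt1, 0.61 for Nrp2, 0.62 for Angpt2 and 0.63 for Tek, and the set with at least 1 count gave 0.57, 0.61, 0.61 and 0.62 for the same genes, 0.47 for Kdr and 0.70 for Angpt1, all of which then passed. Of 130 values for the 10 genes, 127 kept their sign, and the other 3 were those of Vegfa: 0.10 in the block fit, 0.12 without Adipoq-F2-KO library 4 and 0.00099 without FFA2 fl/fl library 3, in a range of -0.30 to 0.12 with 1 library left out. The cause was not tested.

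Relative to Pecam1 and Cdh5, the log2 difference was -0.018 for Flt1, -0.12 for Kdr, -0.45 for Nrp1 (now at the smallest exact p), 0.057 for Nrp2, 0.061 for Angpt2 and 0.068 for Tek. Relative to the endothelial list, leaving out 1 library gave 0.20 to 0.27 for Nrp2, 0.18 to 0.32 for Angpt2 and -0.055 to 0.18 for Kdr, the lowest of these without Adipoq-F2-KO library 4. Such reduced sets cannot reach 0.05. With the replicate number as a block, on the 6 libraries whose number both genotypes share, 223 of 16643 genes were called, 126 of them also without it, 0 of the 10 genes were called, and Vegfa lay at 0.10. Deviations of libraries of the same number correlated at 0.0315, -0.0242 and -0.0203, so that the numbers do not pair them. With 3 and 4 libraries, edgeR recovered 71.2% of simulated 2-fold differences, and smaller ones, such as those of the receptors, were not simulated. In the simulation each gene varied on its own, and no library was set apart as Adipoq-F2-KO library 4 was. The rates of recovered and false calls may therefore not hold for the real libraries.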
